A study of Mus musculus with 2 samples.

Results

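The genes that encode the proteins of the cytosolic ribosome were followed in mouse liver with and without hepatocyte deletion of Mettl3, the catalytic subunit of the m6A RNA methyltransferase. Members were taken by symbol among protein-coding genes (Rpl or Rps plus a number with at most a short suffix, Rplp0, Rplp1, Rplp2 and Rpsa), which gave 83 of the 52636 named genes. Of these, 77 encode standard subunit proteins (46 of the large subunit and 31 of the small subunit) and 6 are minor paralogues, namely Rpl3l, Rpl7l1, Rpl10l, Rpl22l1, Rpl39l and Rps27l. They lie on 19 chromosomes, with 14 on chromosome 7 and 4 on the X chromosome.

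The HKO group was Mettl3 flox/flox with Alb-Cre+/-, and the flox group was Mettl3 flox/flox. Both were C57BL/6 mice of 8 weeks on normal chow, and RNA of 4 livers was pooled into 1 library for each genotype. Alb-Cre was used to delete Mettl3 in hepatocytes, and the state of Mettl3 in the other cells of the liver was not checked here. The Cre transgene is present in the HKO group only, so Cre, the deletion, the pool and the library preparation cannot be told apart. There is no replicate check, no p-value is given, and the brackets below hold exact binomial 95% intervals that cover counting error only.

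The library labelled HKO held 18438807 counts over named genes and the library labelled flox 21457504. Mettl3 had 220 counts at HKO and 156 at flox (log2 ratio 0.45, 0.15 to 0.75), which goes against the label. A count over the whole gene includes exons outside the floxed part, so it does not check the deletion, and directions below refer to the labels. Alb, the albumin gene that marks hepatocytes, took 4.81% of counts in the library labelled HKO and 6.80% in the library labelled flox. To offset such unequal composition, ratios were scaled by the trimmed mean of M values (TMM). Scaling by total counts instead would add 0.27 to every log2 ratio.

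A ribosome contains a single copy of nearly every ribosomal protein (the acidic stalk proteins P1 and P2 are the exception), so the genes of this family are usually expressed at matched levels. Their proteins are made in the cytoplasm, imported into the nucleolus, and assembled there on ribosomal RNA into a large and a small subunit. Most of their mRNAs start with a cytosine followed by a run of pyrimidines, the terminal oligopyrimidine (TOP) motif, through which mTORC1 and Larp1 set their translation. In the liver, hepatocytes make most plasma proteins, and the set is expressed there as well.

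The start of the transcript was read from the RefSeq promoter table, on GRCm38.p6, as 8 bases before the annotated start and 22 bases from it onward. Capitals mark a stretch of at least 5 C or T, taken from a C within 5 bases of the start onward. Pyrimidines ahead of that C therefore stay in lower case. The examples below were taken only from the 29 members with such a stretch, out of 63 in that table. They range from the lowest to the highest ratios of the family.
Rpl7a, chr2:26910799-26910828, plus strand: cttCTTTCTTTCTCCagcagccgagcaaga
Rps2, chr17:24720055-24720084, plus strand: cgagatctcgcgCTTCTTggagcactataa
Rpl18, chr7:45718063-45718092, plus strand: cgcaggccgCTCTTTCCCCgcccactccgg
Rpl27a, chr7:109519187-109519216, plus strand: tgagCTCCTCCCTTTTCCCTTTCTgccacc
Rps6, chr4:86857346-86857375, minus strand: agtcgggCCTCTTTTTCgtgacgcctccca
Rps27, chr3:90213627-90213656, minus strand: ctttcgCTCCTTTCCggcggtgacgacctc
Rpl12, chr2:32961704-32961733, plus strand: caggatccgtCTTTTCggctttcggctcgg
Rpl13a, chr7:45128724-45128753, minus strand: tgcgacaagaCCTCCTCCTTTCCCaggcgg

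Such a stretch was found at 29 of the 63 members that the table holds, and at 21.2% of the starts of all 27025 genes in it. As 63 of 83 is 75.9% of the members, under the 80% needed, that check over the family is void. Among the genes shown, the marked stretch was 12 bases at Rpl7a, with further pyrimidines ahead of it, and Rpl7a had the lowest ratio of the family. It was 6 bases at Rpl12, which was among the highest. A stretch of 20 bases stood at Rpl27a, whose ratio was below the family median. Rpl13a, with the highest ratio, had 14 bases, and Rps2, among the lowest, had 6. A link between the length of the stretch and the ratio was not tested.

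The family took a larger share of the library labelled HKO. Its members received 384535 counts there, 2.09% of all counts (2.08 to 2.09), against 286329 counts or 1.33% (1.33 to 1.34) in the library labelled flox. That is 1.30-fold more after TMM scaling (1.29 to 1.31) and 1.56-fold more per total count. A ratio was computed for the 79 members with at least 20 counts over both libraries. All 79 had a larger share of counts, given here as CPM (counts scaled to a common library total), in the library labelled HKO. On that scale the median log2 ratio over all 14433 genes with as many counts was 0.28, so most genes had a larger share there too. The median member had 232 CPM there and 139 CPM in the library labelled flox.

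On the TMM scale the log2 ratio of the members had a median of 0.44, or 1.36-fold, with quartiles of 0.30 and 0.59 and a range of -0.27 to 1.01. Over all 14433 genes with as many counts the median was 0.01. The ratio was above equality for 76 of the 79 members and for 7328 of the 14433 genes. The interval lay wholly above equality for 74 members, wholly below it for 3 and across it for 2, which was not counted over all genes. A level at least 25% higher, with an interval that left out equality, was reached by 54 of the 79 members, against 21.5% of all genes. The equal step downward, at least 20% lower, was reached by 0 members and by 19% of all genes. Both steps together are called the 25% limit from here on. At a limit of 2-fold only Rpl13a passed, against 5.74% of all genes higher and 4.66% lower. Large ratios were rarer among well-counted genes. Of 5239 other genes with at least 1000 counts, which 74 members reached, 97 were past 2-fold higher and 131 lower. Rpl13a no longer passed with upper-quartile factors, with a prior of 2 counts or with its pseudogene copies added.

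**Figure D1:**
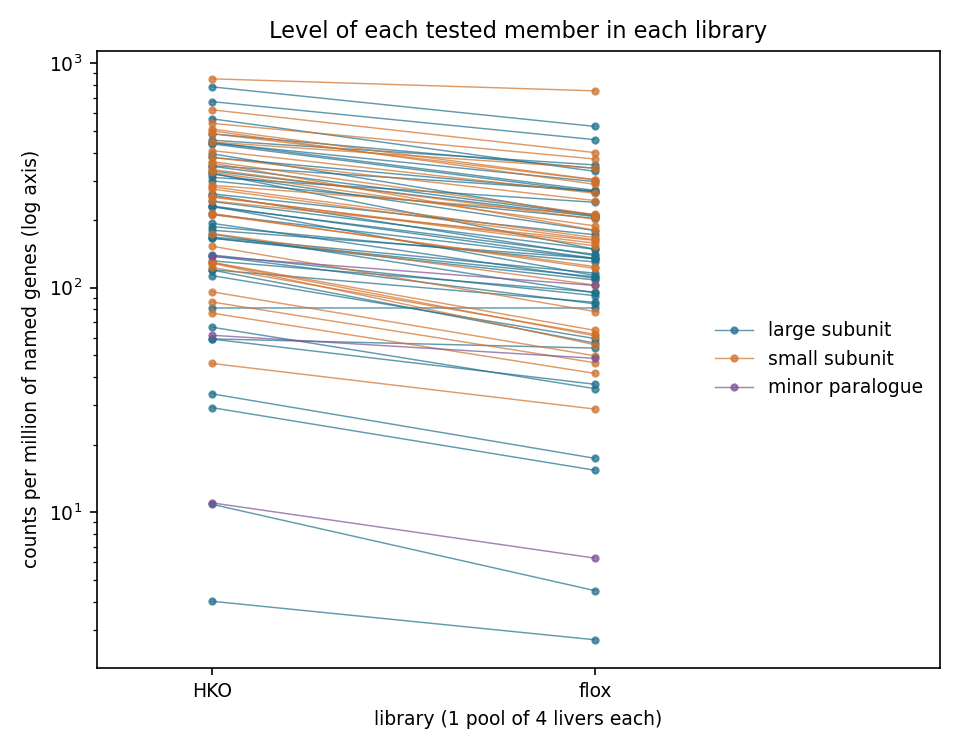
CPM (log axis) of the 79 members with at least 20 counts in the library labelled HKO (left) and the library labelled flox (right). Each line is 1 gene, coloured by subunit. Every line is at least as high at HKO, where levels run up to 852 CPM, against up to 753 CPM at flox, and the lines keep nearly the same order.

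The order of the levels within the family was almost the same in both libraries. Spearman's rho between the CPM of the 79 members in the library labelled HKO and in the library labelled flox was 0.99, a description across genes, and 68 members kept their rank to within 5 places. Rps2, a protein at the entry of the mRNA channel, received the most counts in both, with 15712 in the library labelled HKO and 16155 in the library labelled flox. Rplp0, the scaffold of the P stalk, followed with 14468 counts at HKO and 11219 at flox. Rpl4, which lines the peptide exit tunnel, had 12436 at HKO and 9793 at flox.

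Per kilobase of transcript, the scale on which levels of different genes can be compared, Rplp1 was highest in the library labelled HKO (1133 CPM per kb, against 661 in the library labelled flox). Rps2 was second there with 854 CPM per kb and first in the library labelled flox with 754. Rpl41, the smallest ribosomal protein, had 758 CPM per kb at HKO and 474 at flox. The first 5 places were held by the same genes in both libraries, the other two being Rps14 and Rps18.

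The log2 ratios of the members were less spread than those of other genes with at least 1000 counts, most of which lay at 1000 to 4000 counts, where 15 of the members did. Among the 74 members with at least 1000 counts over both libraries the standard deviation of the log2 ratio was 0.23, where counting error alone gives 0.04. It was 0.50 over the 5239 other genes with at least 1000 counts and 0.41 over 37 genes of the mitochondrial ribosome above that count. Within the class of 8000 to 16000 counts the quartiles were 0.31 and 0.49 for 29 members and -0.57 and -0.045 for 345 other coding genes. Of the 79 members, 58 lay within 0.25 of the family median, while 28 lay above and 30 below it with an interval that left it out. The members were thus not all at 1 common ratio within counting error.

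**Figure D2:**
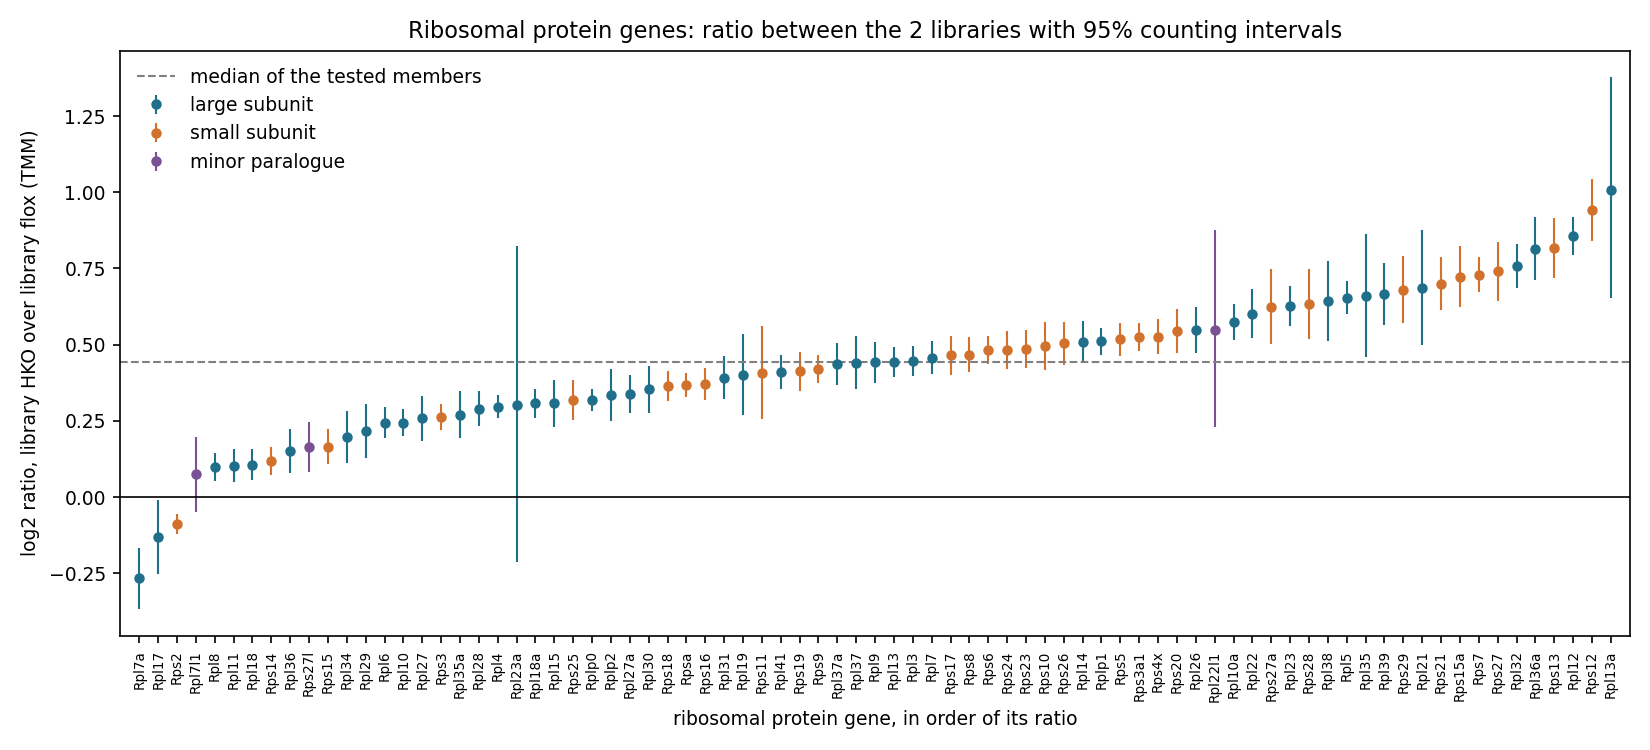
Log2 ratio of the library labelled HKO over the library labelled flox (vertical axis, TMM) for the 79 tested members, in order of their ratio, with 95% counting intervals. Points are coloured by subunit, and the dashed line is the family median of 0.44. All but 3 points are above 0, and both subunits are spread along the whole order.

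Other genes as abundant or as short did not share this shift. In the library labelled HKO against the library labelled flox, coding genes outside the family had a median log2 ratio of -0.02 at 1000 to 4000 counts (n = 3740), -0.16 at 4000 to 8000 (n = 770), -0.31 at 8000 to 16000 (n = 345) and -0.39 at 16000 to 64000 (n = 226). The members in those classes had medians of 0.64 (n = 15), 0.44 (n = 23), 0.44 (n = 29) and 0.30 (n = 7). Across the 79 members, rho of the log2 ratio with CPM in the library labelled flox was -0.38, but the ratio holds that same value in its denominator. Of transcripts under 500 bases, 18 members had a median of 0.50 and 31 other coding genes with at least 1000 counts had -0.21. From 500 to 1000 bases the medians were 0.44 for 43 members and -0.21 for 280 other genes.

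**Figure D3:**
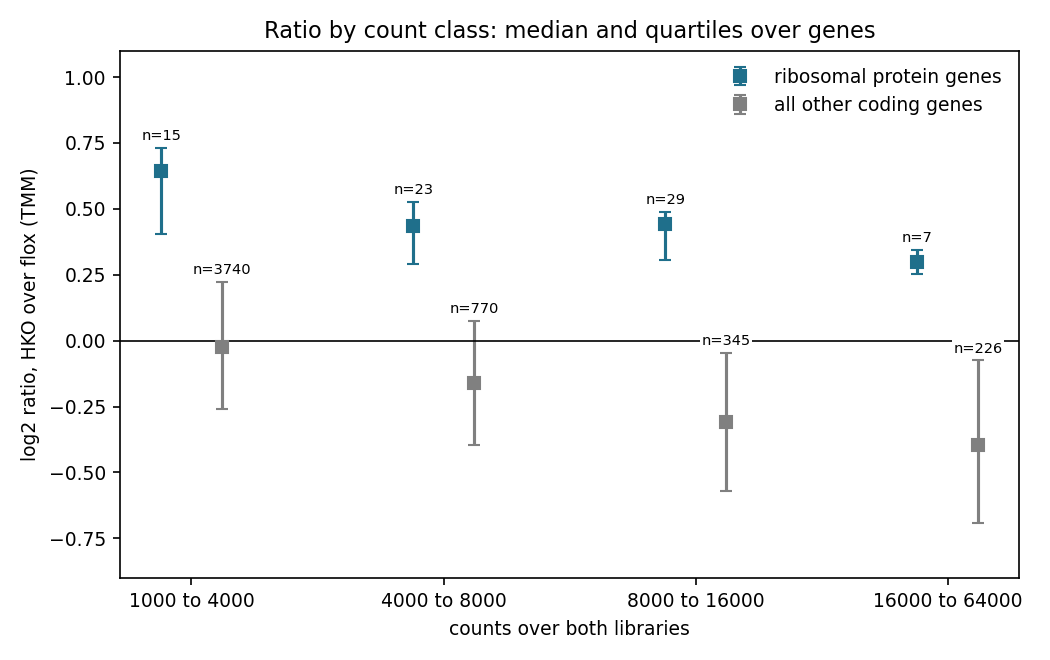
Median (square) and quartiles (bars) of the log2 ratio of HKO over flox in 4 classes of counts over both libraries, for the ribosomal protein genes (left of each pair) and all other coding genes (right). The medians of the members lie from 0.30 to 0.64, and those of the other coding genes from -0.39 to -0.02.

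Marker genes of liver cell types differed between the libraries as well. All 6 hepatocyte markers were below equality, with a summed 72376 CPM in the library labelled HKO and 94048 CPM in the library labelled flox. All 8 markers of Kupffer cells and macrophages were above it, with 613 CPM at HKO and 333 CPM at flox, and 6 of them were at least 25% higher with an interval that left out equality. The 6 markers of other leukocytes summed to 23.5 CPM at HKO and 10.2 CPM at flox. The 5 stellate cell markers summed to 336 CPM at HKO and 226 CPM at flox but were split, with 3 past the 25% limit higher and Acta2 lower (222 counts at HKO, 780 at flox). Endothelial markers summed to 248 CPM at HKO and 243 CPM at flox, and on the TMM scale 1 of 5 was above equality, with a median of -0.24. Erythroid markers summed to 226 CPM at HKO and 224 CPM at flox, and on the TMM scale 0 of the 3 tested were above equality, with a median of -0.08. Bile duct markers summed to 37.3 CPM at HKO and 47.8 CPM at flox and were also split, since Sox9 was higher (404 counts at HKO, 94 at flox) while Krt19 (165 at HKO, 731 at flox) and Krt7 (38 at HKO, 100 at flox) were lower. None of the hepatocyte, macrophage, other leukocyte, endothelial, stellate or bile duct markers was at 0 in either library. In pooled tissue, fewer cells of a type and less RNA per cell cannot be told apart, and the part of cell makeup in the family's ratio was not tested.

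Both subunits were shifted. The 45 tested large-subunit genes had a median log2 ratio of 0.40, with 27 past the 25% limit higher, and the 31 small-subunit genes had 0.49, with 26 past it. The difference of the medians was -0.08. By summed counts, the large subunit had 1.22 times the counts of the small subunit in the library labelled HKO and 1.23 times in the library labelled flox.

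In the P stalk, the flexible arm that recruits the translational GTPases, Rplp1 had 10426 counts at HKO and 7076 at flox (log2 ratio 0.51), and Rplp2 had 2579 at HKO and 1978 at flox (0.33). Rplp0 had a log2 ratio of 0.32, just under the 25% limit, whereas Rplp2 was the member just past it. Rpl12, which sits at the base of the stalk, was more sharply higher than its partners, with 5962 counts in the library labelled HKO and 3184 in the library labelled flox, or 1.81-fold (1.74 to 1.89). All 4 were above equality.

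Rpl5 and Rpl11 join the ribosome together with the 5S ribosomal RNA, and when free they bind MDM2, the ligase that removes p53. Despite that partnership their ratios differed. Rpl5 had 7284 counts at HKO and 4478 at flox, 1.57-fold (1.52 to 1.63), while Rpl11 had 5718 at HKO and 5151 at flox, 1.07-fold (1.03 to 1.11). Of the 8 genes listed as encoding the 5S particle or other MDM2 binders, 5 were past the 25% limit higher and 0 lower, with a median of 0.59. For the whole family these were 54 of 79, 0 and 0.44. Rps7 and Rps27 were the highest of the 8. Of the exonic bases of Rpl5, 46.6% lie within another annotated gene, all on the opposite strand, and 0% of those of Rpl11 lie within another gene.

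Around the mRNA channel of the small subunit, the 5 genes had a median of 0.37, with 3 past the 25% limit higher. All tested members together had a median of 0.44, with 54 of 79 past it. Rps2 stood apart, near equality at -0.09, while Rps28, next to the mRNA exit, had 1593 counts at HKO and 994 at flox (0.63). Rps3, at the entry side, had 9953 counts at HKO and 8032 at flox (0.26), and Rpsa, which binds at the exit side, had 11434 at HKO and 8574 at flox (0.37).

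At the rim of the peptide exit tunnel, where nascent chains leave the large subunit, 6 of 8 genes were past the 25% limit higher and the median was 0.47. Across the whole family it was 54 of 79, with a median of 0.44. Rpl39, a small protein inside the tunnel, had 2088 counts at HKO and 1274 at flox (0.66), and Rpl22, which is needed for T cell development in mice, had 3197 at HKO and 2037 at flox (0.60). Of the proteins that join the large subunit late, 3 of 6 tested genes were past the limit, with a median of 0.33. Rpl10, which completes the peptidyl transferase region in the cytoplasm, had 8934 counts at HKO and 7299 at flox (0.24) and did not pass.

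The 20 genes whose human counterparts are mutated in Diamond-Blackfan anaemia, an inherited failure of red cell production, had a median of 0.50 with 15 past the 25% limit higher. This was near the family as a whole, with a median of 0.44 and 54 of 79 past the limit. The 4 members on the X chromosome had a median of 0.60 and the 75 tested members on autosomes 0.44. Rps4x, on the X chromosome, had 6022 counts at HKO and 4044 at flox (0.53).

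The highest ratio was that of Rpl13a, which in human monocytes leaves the ribosome to silence inflammatory transcripts. It had only 200 counts at HKO and 96 at flox, 2.01-fold (1.57 to 2.60), or a log2 ratio of 0.73 with its pseudogene copies added, and 59.3% of its exonic bases are shared with another gene of the same strand. Rps12, which in Drosophila takes part in the competition between cells of unlike ribosomal gene dose, came next with 2372 counts at HKO and 1195 at flox, 1.92-fold (1.79 to 2.06). Rps13, at a bridge between the subunits, had 2386 at HKO and 1310 at flox (0.82). Rpl36a, a protein of the exit site for tRNA, had 2210 at HKO and 1215 at flox (0.81). These genes were high relative to the family as well as to equality.

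Rpl32 (4252 counts at HKO, 2431 at flox) had a log2 ratio of 0.76 and none of its transcript was shared with another gene over 100 bases. Rps27 (2392 and 1385 in the same order) had 0.74, and Rps7 (6631 at HKO, 3870 at flox) had 0.73. Rps15a (2272 at HKO, 1331 at flox) and Rps21 (2822 at HKO, 1680 at flox) had 0.72 and 0.70. With Rpl12 they make up the 10 highest members.

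Only 3 members were below equality on the TMM scale, and with total counts none was. Rpl7a had 1498 counts at HKO and 1743 at flox, 1.20-fold lower (1.12 to 1.29), and its CPM was the same in both libraries at 81.2. Rpl17 had 1091 at HKO and 1155 at flox, 1.09-fold lower (1.01 to 1.19), but with its pseudogene copies added its log2 ratio was 0.60. Rps2 was 1.06-fold lower (1.04 to 1.09). None of the 3 passed the 25% limit, and they lay 0.71, 0.57 and 0.53 under the family median in that order.

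The next lowest members were slightly above equality. Rpl8, near the peptidyl transferase centre, had 8369 counts at HKO and 7560 at flox (0.10). Rpl18 had 6443 at HKO and 5791 at flox (0.11). Rps14, whose human counterpart is lost in the myelodysplastic 5q syndrome, had 8210 at HKO and 7310 at flox (0.12), and Rpl36 had 3324 at HKO and 2894 at flox (0.15). These genes are among the well-counted members, so their distance from the family median exceeds counting error.

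The minor paralogues were measured beside their parents, and 3 of the 6 could be tested. Rps27l, a p53 target gene in human and mouse cells, had 2544 counts at HKO and 2196 at flox (log2 ratio 0.16), whereas its parent Rps27 was 1.67-fold higher. Rps27l therefore made up 51.5% of the pair in the library labelled HKO (50.1 to 52.9) and 61.3% in the library labelled flox (59.7 to 62.9). The intervals of the shares do not overlap, and the log2 difference between paralogue and parent was -0.58. A further neighbour by symbol, Rps27rt, which the rule leaves out, had 1156 counts at HKO and 1296 at flox, and 98.4% of the 100-base words of Rps27 occur in another gene. The part of shared reads in the ratio of Rps27 was not tested.

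Rpl7l1, whose yeast relative acts in large-subunit assembly, had 1132 counts at HKO and 1040 at flox (0.07). Its parent Rpl7 had 6403 at HKO and 4509 at flox (0.46), and the paralogue's share of the pair was 15.0% at HKO and 18.7% at flox. Rpl22l1, which can replace Rpl22, had 203 counts at HKO and 134 at flox (0.55), so it moved with Rpl22 and its share was 5.97% at HKO (5.20 to 6.82) and 6.17% at flox (5.20 to 7.27). Rpl3l, the form of Rpl3 found in skeletal and heart muscle, had 3 counts at HKO and 1 at flox, against 8059 and 5721 for Rpl3. Rpl10l and Rpl39l, both known from testis, had 0 counts in either library, which allows up to 0.163 CPM at HKO and 0.140 CPM at flox.

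Ribosomal protein genes have many processed pseudogenes, to which reads of the parent can be assigned. Of pseudogenes in the files, 775 shared at least 20% of their 25-base words with a member, and 181 of them had at least 20 counts. Together they took 0.262% of counts in the library labelled HKO and 0.162% in the library labelled flox. Their median log2 ratio was 0.38, near that of the members, with 68 past the 25% limit higher and 7 lower. Of the 83 members, 64 shared over 20% of their 100-base words with another gene, 10 shared less and 9 shared none, and the tested members of these classes had medians of 0.44 (n = 63), 0.36 (n = 10) and 0.56 (n = 6).

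When the counts of the copies were added to the parents, the median stayed at 0.44, 77 of the 79 members were above equality, and 7 members moved by over 0.1. The ratio of Rpl17 turned round. Its copies held 6278 counts at HKO and 3535 at flox, so gene plus copies had 7369 and 4690 in the same order, a log2 ratio of 0.60 (0.55 to 0.66). The copies with the most counts were Rpl17-ps10 on chromosome 7 (3228 at HKO, 1684 at flox) and Rpl17-ps3 on chromosome 12 (2205 at HKO, 1372 at flox). With their copies Rpl7a had -0.14 and Rps2 had -0.09.

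Rps27a, which is made as a fusion with ubiquitin, moved the other way. It had 1421 counts at HKO and 891 at flox (0.63), and with its copies 2003 and 1506 (0.36). A pair of its copies went in opposite directions. Rps27a-ps2 on chromosome 9 had 79 counts at HKO and 469 at flox, 6.11-fold lower (4.83 to 7.89), whereas Gm8430 on chromosome 6 had 500 at HKO and 145 at flox. Rpl5-ps1, a copy of Rpl5 on chromosome 1, had 17 counts at HKO and 134 at flox, while another copy of Rpl5, Gm15500 on chromosome 7, had 1353 at HKO and 698 at flox. Gm8430, Gm15500, Rpl5-ps1 and the Rpl17 copies named above were singled out after their values were seen. Among the annotated pseudogenes named after a member, others past 2-fold were Rpl17-ps5 (484 counts at HKO, 109 at flox) and Rps26-ps1 (212 at HKO, 95 at flox).

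**Figure D4:**
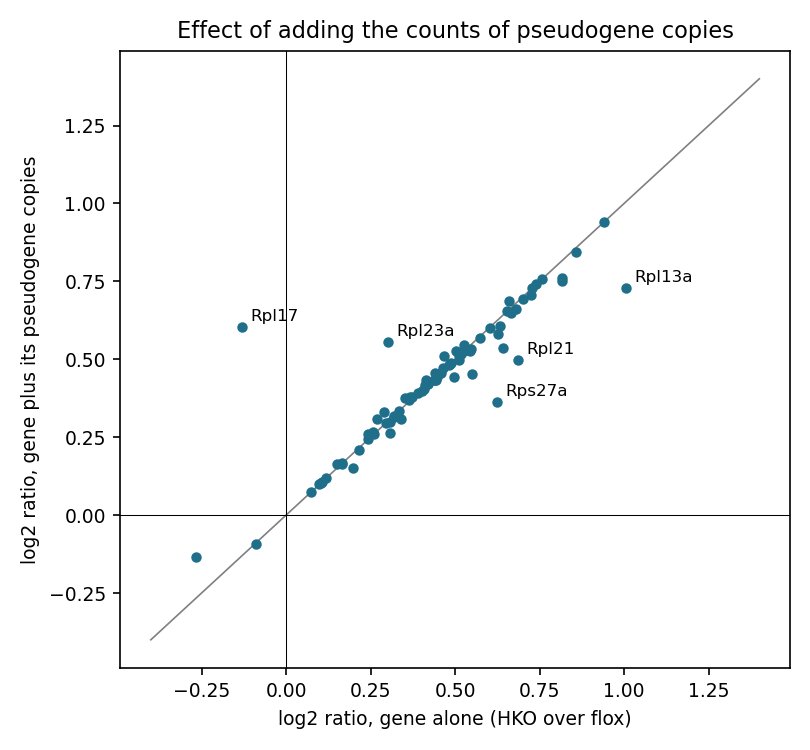
Log2 ratio of HKO over flox for each tested member alone (horizontal axis) and with the counts of its pseudogene copies added (vertical axis). Points on the diagonal did not move. The members that moved most are named, and Rpl17 moves most, to 0.60.

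Rpl24 received only 7 counts at HKO and 4 at flox and could not be tested, although its protein is part of every large subunit. With its 3 copies it had 106 and 77 counts in the same order, and 71.5% of its exonic bases lie in another gene of the same strand. Rpl23a, at the rim of the exit tunnel, had 74 counts at HKO and 58 at flox, an interval across equality, and 55.4% of its exonic bases in another gene. The part of the overlap in these low counts and in those of Rpl13a was not tested.

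GGACT, the core of a sequence context in which METTL3 places m6A, was counted on the transcript strand. It occurred in 41 of the 83 members (49.4%, or 0.835 per kb) and in 91.3% of 12680 tested coding genes (1.11 per kb), whose median transcript is 2789 bases long against 729 bases for the members. The tested members with the motif had a median log2 ratio of 0.46 (n = 38) and those without had 0.39 (n = 41). The motif is a match of letters and not a methylated site.

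Ribosomal proteins with symbols outside the rule were read beside the family. Rack1, the signalling scaffold on the small subunit, had 9598 counts at HKO and 6815 at flox (0.45), close to the family median, and Fau, a fusion with a ubiquitin-like protein, had 6325 at HKO and 5609 at flox (0.13).

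Other mRNAs known to carry a TOP start lay between the family and the rest of the genes. Of the 19 on the list, 6 were past the 25% limit higher and 0 lower, against 21.5% and 19% of all genes. Of the 19, 18 were above equality, and the median was 0.24. Eef1a1, which brings aminoacyl-tRNA to the ribosome, had 109639 counts at HKO and 82280 at flox (0.37). Eef2, which drives translocation, had 67268 at HKO and 63650 at flox (0.03). Of 6 transcripts that host snoRNAs behind a TOP start, 3 were past the limit and the highest was Gas5, with 1339 counts at HKO and 686 at flox (0.92), whereas Snhg8 had 283 at HKO and 265 at flox (0.05).

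Genes of ribosome assembly were higher for a part of the list. Of 35 such genes 17 were past the 25% limit higher and 2 lower, against 21.5% and 19% of all genes. Their median was 0.32, and 4 passed 2-fold higher, against 5.74% of all genes. Those were Gar1 and Nhp2 of the box H/ACA particles that make pseudouridine in ribosomal RNA (404 and 923 counts at HKO, 128 and 439 at flox), Nop2, an rRNA methyltransferase (907 at HKO, 416 at flox), and Rrs1, a factor that brings in the 5S particle (1179 at HKO, 537 at flox). Of 6 tested chaperones of ribosomal proteins 3 passed the 25% limit. Grwd1, the chaperone of Rpl3, had 759 counts at HKO and 319 at flox, 2.30-fold (2.02 to 2.63).

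The 22 initiation factors did not share the shift, with a median of -0.0042, 1 past the 25% limit higher and 2 lower. Eif4g1, the scaffold of the cap-binding complex, had 12239 counts at HKO and 13133 at flox (-0.15), and Eif5a had 8183 at HKO and 8340 at flox (-0.08). The 77 tested proteins of the mitochondrial ribosome, a separate machine encoded by other nuclear genes, had a median of 0.10 with 18 past the limit higher and 7 lower. Over all genes 21.5% were past it higher, near the share of this list, and 19% lower. Mrps2 (1318 counts at HKO, 511 at flox) and Mrpl43 (2163 at HKO, 929 at flox) were the mitochondrial members past 2-fold. Among 6 factors of ribosome rescue none was past the 25% limit higher and 2 were lower, and Zfp598, which marks collided ribosomes, had 2085 counts at HKO and 2630 at flox. Abce1, which recycles ribosomes, had 1476 at HKO and 1169 at flox (0.29).

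Of 17 regulators of ribosomal protein synthesis, 3 were past the 25% limit higher and 3 lower, with a median of 0.02. These counts were near the shares over all genes, 21.5% higher and 19% lower. Myc, a transcription factor that acts on ribosome genes, had 2341 counts at HKO and 336 at flox, 6.73-fold (6.01 to 7.58). Mtor, the kinase upstream of TOP mRNA translation, had 1481 at HKO and 1427 at flox (0.01). The 3 regulators past the limit lower were Tsc2 (-0.66), Eif4ebp2 (-0.51) and Rps6kb2 (-0.40). Besides Myc, those past it higher were Eif4ebp1 (0.41) and Gabpa (0.35). In the p53 axis, Mdm2 had 899 counts at HKO and 638 at flox (0.45) and Cdkn1a, the main p53 target of cell cycle arrest, had 1608 at HKO and 1347 at flox (0.21).

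**Figure D5:**
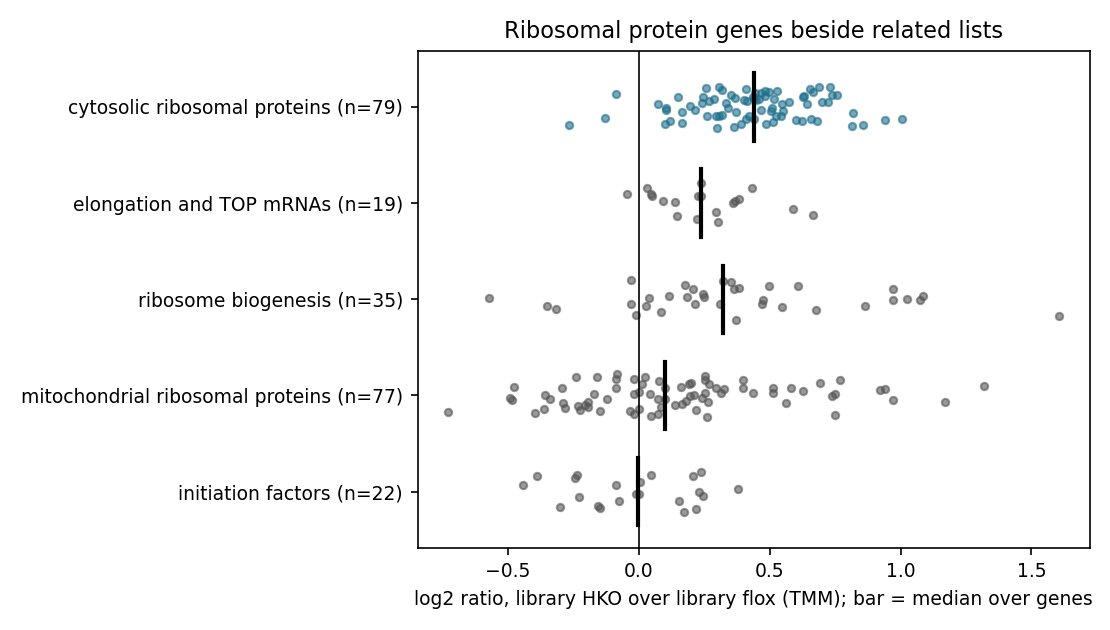
Log2 ratio of HKO over flox (horizontal axis, TMM) for each tested gene of 5 lists, with 1 point per gene and a black bar at the median. The ribosomal protein genes have a median of 0.44, the biogenesis genes 0.32, the other TOP mRNAs 0.24, the mitochondrial ribosomal proteins 0.10 and the initiation factors -0.0042.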

How the data were processed

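The authors made RNA libraries of 2 liver pools with the NEBNext Ultra kit and deposited raw counts of reads per gene, with no normalization. The submitters' notes name TopHat2, HTSeq 0.6.1 and GRCm38, while the published methods name another aligner. Which of them made the files, and the strand setting, are not given in the sources used here. No unique molecular identifiers are described, so reads are not independent molecules.

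Names, types and transcripts came from GENCODE M21. Of 52947 features, 311 unannotated ones (0.261% of counts at HKO, 0.328% at flox) were left out of totals, and 147 named ones had no match. Python 3.11.15 with SciPy 1.17.1 computed ratios with a prior of 0.5 counts, a floor of 20 counts and exact binomial 95% intervals, tested on simulated data, and edgeR 4.0.16 in R 4.3.3 gave the TMM factors. A fold limit counts as passed when the ratio reaches it and its interval leaves out equality. One count was worth 0.0542 CPM at HKO and 0.0466 CPM at flox.

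Members, lists and tests were chosen with earlier results of these data known. Members are named when they passed 2-fold, were among the 10 highest or lowest, the 5 most abundant or nearest the 25% limit, or belong to a minor pair, the P stalk or the 5S particle. Of each other list up to 4 genes past 2-fold are named, or its 2 most abundant where none passed. A few further members, Mtor and the other regulators past the 25% limit were added after their values were seen. Some genes that the rule names are not reported here. One transcript per gene (the shortest complete principal one) was used for sequence and length, a rule settled as the last of 3 tried, after lengths had been seen. Copy thresholds, the GGACT count, the rank and spread summaries, and the classes by count and length were also set after seeing the data.

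Alternatives were other scaling factors (total counts, upper quartile, size factors of DESeq2 1.42.0, TMM over coding genes), floors of 1 and 100 counts, a prior of 2, thinning, a correction for length and GC, and other sets of members.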

Additional observations from a re-analysis of the deposited data

How the results depend on the processing

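The family's median kept its direction under every scaling, floor, prior and member set that was run. Its median log2 ratio was 0.71 with total counts, where the median of all genes was 0.28, and 0.37 with upper-quartile factors. Past 2-fold higher there were 7 of 79 members with total counts, where 1504 of 14433 genes were. There were 0 members with upper-quartile factors, with a prior of 2 counts and with copies added. Of all genes, 691 were past it with upper-quartile factors and 785 with that prior. The sets without members over 20% shared words or over 20% exon overlap leave out Rpl13a, the only member past 2-fold. Their count of 0 was therefore fixed in advance. With upper-quartile factors 1 member, Rpl7a, was past the 25% limit lower. Over all genes, 5709 were past the 25% limit higher and 1240 lower with total counts, against 3110 and 2746 with TMM. Without members over 20% shared words, 9 of the 16 left were past the 25% limit higher. The share of counts was 2.65% at HKO and 1.75% at flox among coding genes without the 10 most abundant and the mitochondrial ones, 2.06% and 1.32% without the minor paralogues, and 2.22% and 1.42% with annotated pseudogenes added. The ratio of Rpl17 was 0.60 with copies added. Rplp2 (0.26) and Rpsa (0.29) were no longer past the 25% limit with upper-quartile factors, while Rplp0 (0.35) and Rpl4 (0.33) passed it with DESeq2 size factors. The alternatives on copies, shared words and overlap were chosen after seeing the data. An exclusion by words shared with the genome was not run, since no genome was used here, and promoter motifs in a shorter window are not reported because too few members matched the promoter table.

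No paired analysis was possible because each genotype has 1 library and the labels carry no replicate numbers. For the same reason no library was left out. The intervals hold counting error only, so differences between animals, pools and preparations are in none of them. Rpl24, Rpl3l, Rpl10l and Rpl39l had too few counts for a ratio.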
